A study of Mus musculus with 8 samples.

Results

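The baseline transcriptome of epididymal white adipose tissue (WAT) was described from the 4 wild type (Wt) arrays of a series of 8. Members were chosen by genotype label alone, so no measured value decided which arrays entered. The Wt samples came from male C57BL6/J mice of 4 months carrying no transgene. The other 4 arrays, labelled Agt Tg, held the same fat depot of male mice of that strain and age that overexpressed angiotensinogen (Agt) in adipose tissue from the aP2 promoter, which is also active in macrophages. Both groups had eaten a low fat diet. The Agt Tg arrays were used here only for the spread of a gene within that group, and no level was compared between genotypes. Each sample was 1 array of total RNA from whole tissue, so adipocytes, vessels, fibroblasts, mesothelium, immune cells and blood were read together, and fewer cells of a type cannot be told apart from less RNA per cell.

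WAT stores triglyceride in the single large droplet of each adipocyte. Fatty acids are freed from circulating lipoproteins by lipoprotein lipase or made in the cell, esterified, kept behind a coat of perilipins and CIDE proteins, and released by the lipases of the droplet surface. Adipocytes also secrete hormones, of which leptin reports the size of the fat store to the brain and adiponectin raises insulin sensitivity. The epididymal depot is a visceral fat pad, covered by mesothelium and well supplied with macrophages, and its lymphoid clusters hold B cells.

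The platform reads each gene by 1 or more bead-bound probes, and the brightness of a probe depends on its sequence as well as on the transcript. The order given below is therefore an order of probe signal and not of transcript number. The gene Lyz2, lysozyme of macrophages, shows how far probes can differ: its 3 probes had mean log2 signals of 14.01, 9.99 and 7.02 on the same 4 arrays, and the last of them was detected on none. A gene was represented by its brightest probe among those with a detection p under 0.05 on all 4 Wt arrays. Signals are the authors' log2 values, errors are SD over the 4 arrays, and a percentile is the place of a gene's mean among all genes detected on all 4.

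One array stood apart before any gene was considered. Pairwise Pearson correlations over all probes ran from 0.978 to 0.982 for the 3 pairs that included Wt 3 and from 0.988 to 0.992 for the other 3. Detection p was under 0.05 for 11253 probes on Wt 3 and for 12077 to 12284 on the others. The 95th percentile of raw intensity was 1334 on Wt 3 against 1574 to 2193 elsewhere, although its median intensity of 136 lay within the 125 to 154 of the other arrays. Counts of variable genes, the SDs of the main genes set by Wt 3 and the list counts on Wt 2 are given below with and without Wt 3.

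Of 16593 annotated genes, 7229 (43.6%) were detected on all 4 Wt arrays, 2842 (17.1%) on 1 to 3 and 6522 (39.3%) on none. Detected genes spanned mean signals from 7.16 to 15.21 with a median of 8.54, while genes detected on no array had a median of 6.97. A mean above 14 was reached by 33 genes, so the bright end held few genes and the median detected gene lay little above the background, as the distribution of signals shows.

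**Figure D1:**
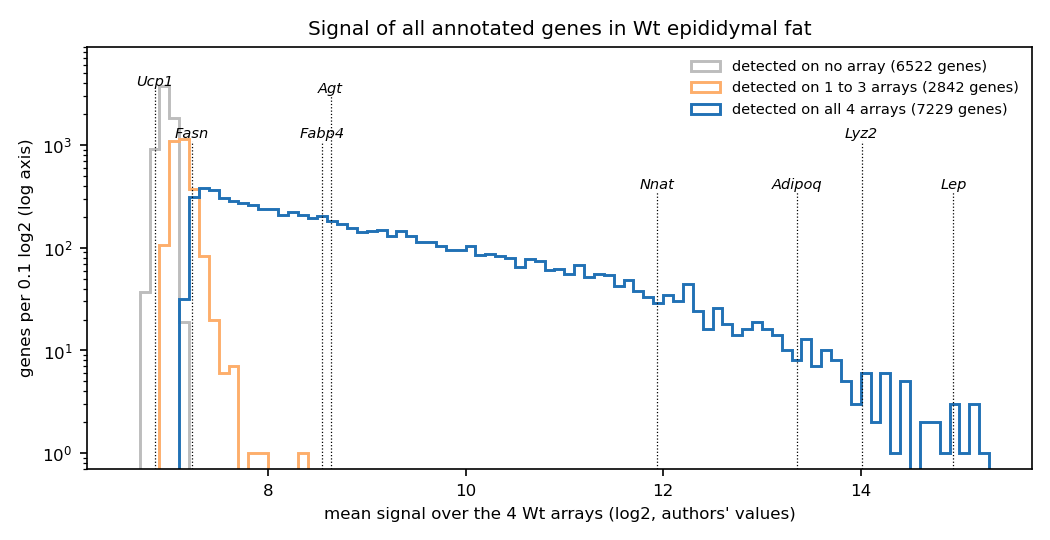
Number of annotated genes (log axis, bins of 0.1 log2) against mean signal over the 4 Wt arrays, drawn separately for the 7229 genes detected on all 4 arrays, the 2842 on 1 to 3 and the 6522 on none; dotted lines mark single genes. Lep, Lyz2 and Adipoq sit in the bright tail, Fabp4 and Agt near the middle, Fasn at the dim edge and Ucp1 among genes detected on no array.

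The highest signals came from ribosomal, blood, lipid and secretory genes. Rplp1, a protein of the large ribosomal subunit, led with 15.24, 15.20, 15.20 and 15.20 on Wt 1 to Wt 4. Hba-a1, an alpha globin of red cells, followed with 15.20, 15.13, 15.24 and 15.15, and its near-identical copy Hba-a2 was not analysed here. Dbi, which binds acyl-CoA, read 15.13, 15.24, 15.05 and 15.24. These 3 lay at or next to the ceiling that quantile normalization shares between arrays, the highest value being 15.24 on each array, so their small SDs of 0.02 to 0.09 are bounded by that ceiling. The 25 brightest genes further included Gpx1 and Mt1 of the oxidant and metal response, Psap and Itm2b of lysosome and membrane, Mfge8, Fth1, Atp5b and Atp5g3 of mitochondrial ATP synthase, Tuba1b, B2m, S100a11, Rpl41, Rpl38 and Rps2. Of the 40 brightest detected probes, 8 had no gene name here.

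Genes of lipid handling were also in that group. Lpl, lipoprotein lipase, read 15.15, 15.05, 14.93 and 15.01 (mean 15.03 ± 0.09 SD, n = 4). Dgat2, which makes the last ester bond of triglyceride, read 14.69, 14.85, 14.76 and 14.69. Pnpla2, the first lipase of triglyceride breakdown, read 13.98, 14.54, 14.28 and 14.03 (14.21 ± 0.26). Both the storing and the releasing enzyme were thus among the 25 highest signals. Car3, a carbonic anhydrase abundant in rodent fat, and Aoc3, an amine oxidase of the adipocyte surface, averaged 14.47 ± 0.17 and 14.22 ± 0.22.

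Among hormones, Lep was the brightest, with 14.97, 14.79, 15.15 and 14.85 (14.94 ± 0.16, percentile 99.9). Adipoq, the gene of adiponectin, read 13.28, 13.62, 13.29 and 13.23 (13.35 ± 0.18, percentile 98.8), with Wt 2 alone above the rest. Hp, haptoglobin, which mouse adipocytes secrete, read 14.93 on Wt 1 to 15.08 on Wt 4. Of the 11 adipokine and secreted genes annotated, 8 were detected on all 4 arrays and 6 of these lay above percentile 90, with Serpinf1 (13.43 ± 0.29), Angptl4 (13.15 ± 0.19) and Apoe (12.18 ± 0.37) beside Lpl, Lep and Adipoq. The median percentile of the detected members was 98.7, against the middle of the scale for all detected genes. Retn, resistin, was detected on 3 arrays at a mean of 7.14, and Cfd, adipsin, was not analysed here.

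The promoters of both hormone genes are shown because their transcripts define the adipocyte in this tissue. RefSeq windows (GRCm38.p6) run from 250 bases before to 50 bases after the start of the gene, 5′ to 3′ on the gene's strand. Capitals mark matches to any of 5 short motifs searched on both strands: the TATA box TATAAA, the CCAAT box CCAAT, the GC box GGGCGG, the E-box CACGTG and the C/EBP-like TTGCNNAA. The Lep window is chr6:29059971-29060270 and the Adipoq window chr16:23146286-23146585, both on the plus strand.
Lep: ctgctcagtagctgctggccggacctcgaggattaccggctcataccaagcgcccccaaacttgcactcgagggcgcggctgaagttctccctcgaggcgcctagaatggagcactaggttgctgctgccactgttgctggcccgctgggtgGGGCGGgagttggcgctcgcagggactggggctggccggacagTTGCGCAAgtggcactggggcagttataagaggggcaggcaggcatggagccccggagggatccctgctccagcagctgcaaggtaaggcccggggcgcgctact
Adipoq: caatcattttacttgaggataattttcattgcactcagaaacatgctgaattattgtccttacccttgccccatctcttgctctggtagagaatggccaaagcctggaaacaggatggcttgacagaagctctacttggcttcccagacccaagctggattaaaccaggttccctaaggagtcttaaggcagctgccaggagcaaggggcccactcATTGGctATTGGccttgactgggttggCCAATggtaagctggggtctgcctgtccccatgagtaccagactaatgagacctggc
The Lep window held a GC box at position -98 and a palindromic C/EBP-like match at -55. The Adipoq window held 3 CCAAT matches, at -34, -27 and -7. Over all 27025 promoters, 35.9% held the GC box, 37.9% the CCAAT box and 10.8% the C/EBP-like letters. The GC box was found in 65.3% of 5877 promoters of detected genes and in 33.9% of 5185 promoters of genes detected on no array, while the TATA box was found in 7.3% and 18.5%. A match is a string of letters and not a shown binding site.

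The lipid droplet list was the most complete of the adipocyte lists: all 13 annotated members were detected on all 4 arrays and 7 lay above percentile 90. After Pnpla2 came Plin4 (14.06 ± 0.20), Bscl2, the seipin of droplet formation (13.59 ± 0.13), Mgll, which frees the last fatty acid (12.75 ± 0.14), and Cidec, a protein of droplet growth (12.39 ± 0.36). G0s2, an inhibitor of Pnpla2, had the smallest spread of the list at 11.66 ± 0.03. Plin1, the adipocyte perilipin, varied more, with 10.06, 11.07, 10.39 and 10.19, a range of 1.01 set by Wt 2. Cidea, better known from brown fat, averaged 7.64 ± 0.10.

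For fatty acid and triglyceride synthesis, 17 of 19 annotated genes were detected on all 4 arrays, 7 of them above percentile 90. Scd1, the desaturase, averaged 13.45 ± 0.27 and Acly, which supplies cytosolic acetyl-CoA, 12.57 ± 0.26. Agpat2 of triglyceride assembly (11.15 on Wt 3 to 12.46 on Wt 2) and Acaca, acetyl-CoA carboxylase (10.82 on Wt 3 to 11.87 on Wt 2), passed a range of 1. Fasn, fatty acid synthase itself, read 7.21, 7.18, 7.18 and 7.33, at percentile 1.3, and Pck1 of glyceroneogenesis lay at percentile 2.4. Other textbook adipose genes were dim as well. Fabp4, the fatty acid carrier aP2, read 8.52, 8.52, 8.66 and 8.50, at percentile 50.4. Cd36, the fatty acid translocase, was detected on 1 array at a mean of 7.06.

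A dim probe did not mean an absent transcript, because genes that every cell uses were also at background. Eef1a1, the main elongation factor of translation, read 7.05 to 7.09 and Tpt1 averaged 6.99, and neither was detected on any array. Of the beta globins, Hbb-b2 averaged 6.91 and was detected on no array, while Hbb-bt was detected on all 4, so a beta globin was read. S100a9 was detected on 1 array at 7.12 on average while S100a8, with which it pairs in neutrophils, averaged 10.93. The same limit applies to Insr, the insulin receptor, which was detected on no array at 6.95. In these data "not detected" describes the probe.

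Regulators of the fat cell were detected over a wide span of signals. Of 14 annotated, 11 were detected on all 4 arrays, led by Ghr, the growth hormone receptor (12.24 ± 0.25), Nr1h3, the sterol receptor LXR alpha (11.46 ± 0.10), Cebpb (11.42 ± 0.40) and Pparg (11.26 ± 0.27), the master regulator of adipocyte differentiation. Slc2a4, the insulin-responsive glucose transporter, read 8.71, 9.72, 9.33 and 8.95, a range of 1.01. Klf15 and Insr were detected on no array. Of 11 annotated brown and beige genes, 6 were detected on no array, against 39.3% of all annotated genes, and none lay above percentile 90. The 6 were Ucp1, Dio2, Elovl3, Prdm16, Zic1 and Tmem26. Ucp1, the uncoupling protein of brown fat, read 6.75 to 6.98. Ebf2, Cox7a1, Cox8b and Kcnk3 were detected on all 4, as were 43.6% of all annotated genes.

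Nnat, an imprinted gene of the endoplasmic reticulum membrane, read 11.51, 12.66, 11.69 and 11.91 (11.94 ± 0.51, percentile 94.7), highest on Wt 2. Its second probe gave 8.58, 9.16, 8.72 and 8.53, again highest on Wt 2. Of 12 annotated imprinted and expansion genes 8 were detected on all 4 arrays. Sfrp5 (10.59 ± 0.30), Bmp3 (9.93 ± 0.32) and Mest (8.92 ± 0.37), which are known to vary with fat expansion in mice, were among them, while Dlk1 and Plagl1 were detected on no array. Within the renin-angiotensin system, Agt itself read 8.18, 9.18, 8.59 and 8.58 (8.63 ± 0.41, percentile 52.4). The receptor gene Agtr1a read 8.75, 8.93, 8.25 and 8.86, whereas Agtr1b, Agtr2 and the receptor Mas1 were detected on no array. Atp6ap2, the prorenin receptor, averaged 11.63 ± 0.23.

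**Figure D2:**
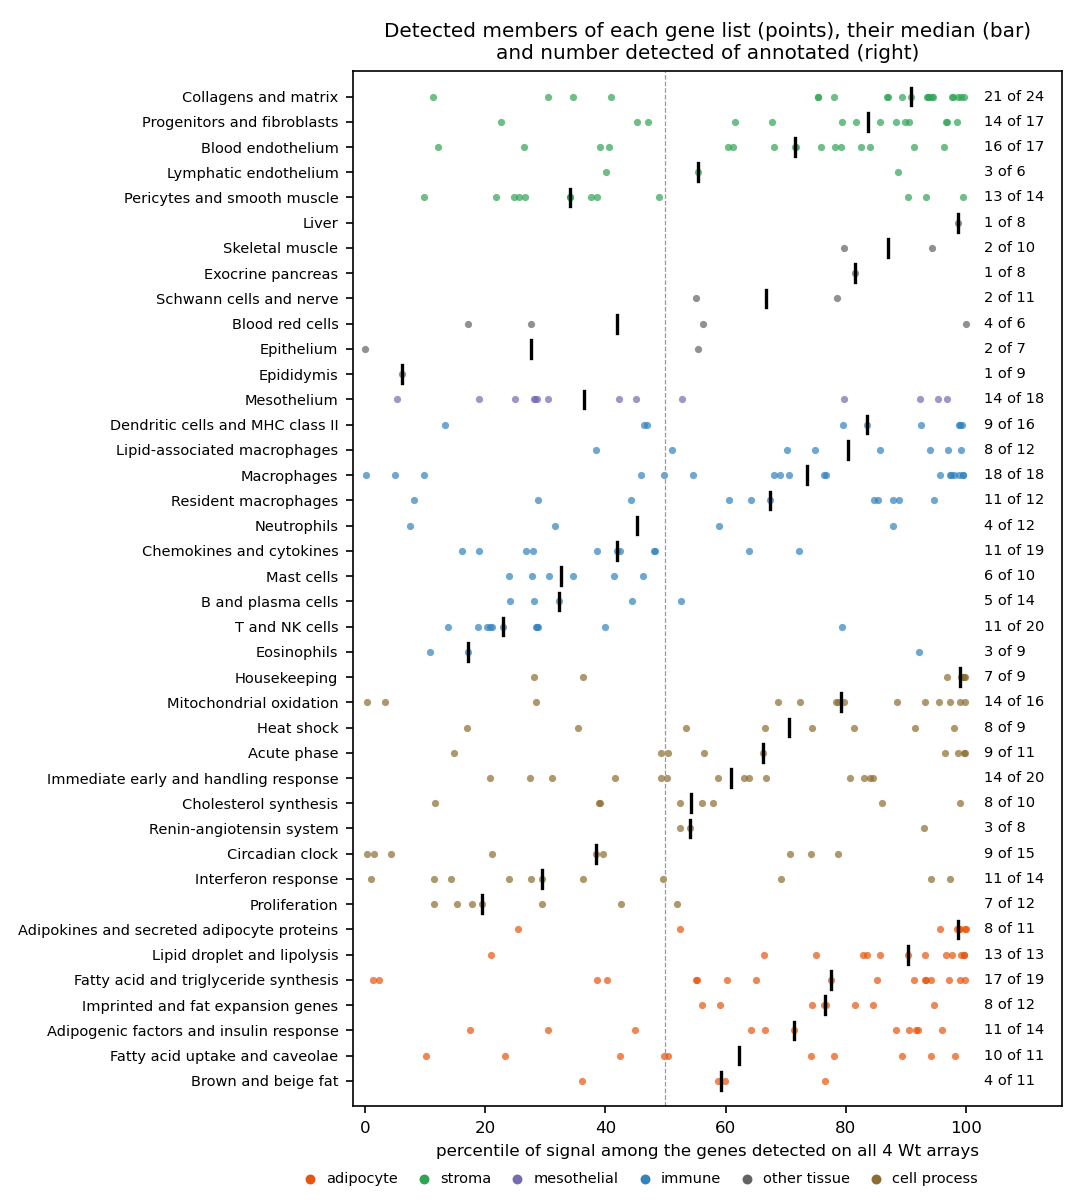
Percentile of mean signal (horizontal, 0 dimmest to 100 brightest among genes detected on all 4 Wt arrays) for the detected members of each gene list (points, coloured by class), with the median as a bar and the number detected of those annotated at the right. Adipokines, lipid droplet genes and matrix genes have medians of 98.7, 90.4 and 90.9, while T and NK cell genes have 22.9 and testis and sex-linked genes, with no member detected on all 4, have no row.

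Among stromal lists, matrix genes and progenitor genes had the highest median percentiles, 90.9 and 83.7. Of 24 annotated collagen and matrix genes 21 were detected on all 4 arrays and 11 lay above percentile 90. Sparc, which binds collagen, read 14.38, 14.24, 14.20 and 14.38. The basement membrane chains Col4a1 and Col4a2 averaged 13.60 ± 0.27 and 12.79 ± 0.22, and Col6a1, which surrounds adipocytes, 13.29 ± 0.40. The fibrillar collagens were dimmer by probe, Col1a1 at percentile 75.3 and Col3a1 at 30.5. Postn, Lama4 and Lamb1 were detected on no array.

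Among progenitor and fibroblast genes 14 of 17 were detected on all 4 arrays, led by Dcn, decorin (13.14 ± 0.21), Vim (12.43 ± 0.13) and Anxa3 (12.39 ± 0.06). The progenitor markers Dpp4 (10.33 ± 0.07), Pi16 (9.36 ± 0.21) and Pdgfra (9.04 ± 0.32) were detected on all 4. Gsn, gelsolin, stood apart on Wt 1 with 10.51 against 11.54, 11.40 and 11.64. Blood endothelium gave 16 of 17 genes on all 4 arrays with a median percentile of 71.6, Egfl7 (12.29 ± 0.32) and Esam (11.38 ± 0.11) being brightest. Acta2, the actin of smooth muscle, averaged 13.82 ± 0.16, whereas most of the 13 detected pericyte and smooth muscle genes lay low, with a median percentile of 34.1.

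Mesothelial genes were present over a wide span of signals. Upk3b, a mesothelial membrane protein, read 12.09, 11.76, 12.14 and 12.47. Slpi, a protease inhibitor, read 11.49, 11.11, 12.07 and 11.43. The defining genes were dimmer. The transcription factor gene Wt1 read 8.17, 8.22, 8.35 and 8.35, and Msln, mesothelin, 7.87, 7.80, 7.98 and 7.74. Of 18 annotated members 14 were detected on all 4 arrays and 0 on none, with a median percentile of 36.4. Without Wt 3, and with detection asked only of the other arrays, the median was 32.8. Of the 14 members, 11 were highest on Wt 3, against 35.2% of all detected genes. Igfbp5, which other stromal cells also express, went the opposite way and was lowest on Wt 3, at 11.76 against 12.48 or more on the others.

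All 18 annotated macrophage genes were detected on all 4 arrays and 7 lay above percentile 90. The median percentile was 73.5 for this list, 80.3 for lipid-associated macrophages and 83.6 for dendritic cells and MHC class II. Lyz2 read 14.20, 13.79, 13.71 and 14.34 (14.01 ± 0.30, percentile 99.6). Its copy Lyz1 averaged 14.02 ± 0.08, and cross-hybridisation between them was not tested. The complement genes C1qb (12.95 ± 0.32) and C1qc (12.68 ± 0.41) and the chemokine Ccl9 (12.65 ± 0.50) followed. Resident macrophage genes were dimmer, with 11 of 12 detected on all 4 and a median percentile of 67.4, Gas6 (11.94 ± 0.37), F13a1 (11.08 ± 0.10) and Mrc1 (10.95 ± 0.22) leading. Genes of lipid-associated macrophages were detected in 8 of 12 cases, with Lgals3 at 13.61 ± 0.36 and Cd63 at 12.49 ± 0.19, while Itgax and Atp6v0d2 were detected on no array. MHC class II genes were bright, with H2-Ab1 (13.77 ± 0.37), Cd74 (13.50 ± 0.39) and H2-Eb1 (13.39 ± 0.22) above percentile 90.

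T and NK, B and mast cell genes had lower median percentiles than macrophage genes. Of 20 annotated T and NK cell genes 11 were detected on all 4 arrays, none above percentile 90, with a median percentile of 22.9, and Cd8a, Gzma, Gzmb, Ncr1 and Klrb1c were detected on no array. B and plasma cell genes gave 5 of 14, and Pax5 was on none. The dendritic cell genes Flt3, Xcr1, Ccr7, Ccl17 and Ccl22 were detected on no array. Mast cell genes gave 6 of 10 with a median percentile of 32.6. Neutrophil genes gave 4 of 12 with a median percentile of 45.3, S100a8 being the brightest at percentile 87.8. Without Wt 3 the medians were 42.8 for mast cell and 34.98 for neutrophil genes. Detection was then asked only of the other arrays, so the members can differ. Eosinophil genes gave 3 of 9, of which Ccl11, a chemokine that attracts these cells and is made by stroma, averaged 11.47 ± 0.27, and Siglecf and Epx were on none.

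For the tissues below, which could be carried over with the fat pad, few listed genes were detected on all 4 arrays. Some of those detected were bright. Of 9 epididymis genes 1 was detected on all 4 arrays, Lcn8 at percentile 6.1, and 6 were on none. None of 8 testis genes was detected on all 4. For exocrine pancreas and liver 1 of 8 each was detected, Cela1 (10.31 ± 0.39) and Cyp2e1 (13.21 ± 0.48), a cytochrome that adipose tissue also expresses, while Alb was on none. Skeletal muscle was split, since Myl1 (11.88 ± 0.20) and Acta1 (10.16 ± 0.36) were detected on all 4 and Ckm, Mb, Myh1, Myh4, Mylpf and Tnnt3 on none. The male label could not be read from these probes: Eif2s3y of the Y chromosome read 6.97 to 7.75 and was detected on 2 arrays, Kdm5d and Uty averaged 7.14 and 7.12, and Xist averaged 7.10.

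The 4 arrays agreed closely for most genes. The median SD of a detected gene was 0.171 and the median range 0.381. The SD grew with signal, from a median of 0.105 in quartile 1 of signal to 0.217 in quartile 4. In the 4 Agt Tg arrays the same genes had a median SD of 0.159. A range of 1 or more, which is a 2-fold or larger gap between the highest and the lowest array, was reached by 269 of 7229 genes (3.72%). Of the 361 most variable genes in Wt, 117 (32.4%) were also among the 361 most variable in Agt Tg, which are 4.99% of all detected genes. The SD rose with signal in both groups, and the part of signal in this overlap was not tested.

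Which array made a gene variable differed from gene to gene. An array was said to stand apart where at least 0.5 of a gene's range lay between it and the next array, a rule chosen after the values were seen. Wt 3 was the array most often apart among the 269 genes, being low for 97 (1.34% of detected genes) and high for 36 (0.498%). Wt 2 was low for 39 (0.539%) and high for 22 (0.304%). Wt 1 was high for 7 (0.0968%) and low for 2 (0.0277%). Wt 4 was high for 5 (0.0692%) and low for 1 (0.0138%), and no single array stood apart for 60 (0.83%). With Wt 3 left out, the range reached 1 for 80 of the same 7229 genes, and with Wt 2 left out for 148. Without quantile normalization, each array being scaled to the same median only, Wt 3 was low for 462 genes and high for 2, and the median difference of all detected genes on that array from their own means was -0.20.

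**Figure D3:**
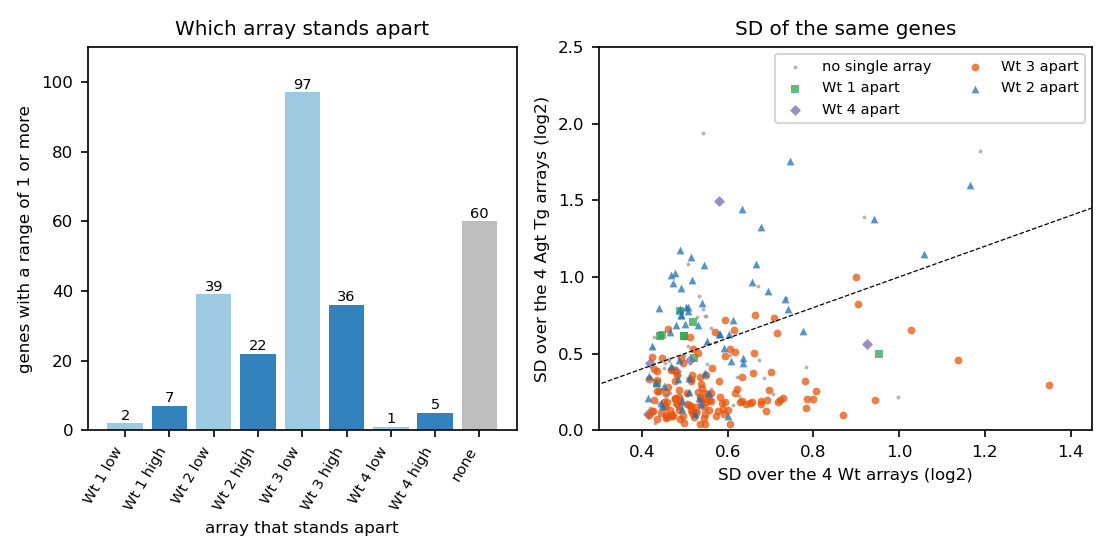
Left, number of genes with a range of 1 or more by the array that stands apart and its direction; right, SD over the 4 Agt Tg arrays against SD over the 4 Wt arrays (log2) for the same 269 genes, with the line of equal SD dashed. Genes set by Wt 3 mostly lie below the line, with a median Agt Tg SD of 0.20, while most genes low on Wt 2 lie above it, with a median of 0.79. All 269 were chosen by their Wt range, which by itself favours a place below the line.

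Of the 97 genes low on Wt 3, 6 (6.19%) belonged to a gene list, as did 4.69% of all detected genes. Lbh, a transcriptional cofactor, had the largest SD of all, with 10.81, 10.50, 8.04 and 10.86 (SD 1.35), and its second probe was also lowest on Wt 3 at 8.08 against 9.17 to 9.54. Ccnd2, cyclin D2, read 10.49, 10.54, 8.29 and 10.67, and Psme3, a proteasome activator, 10.27, 10.49, 8.63 and 10.31. On each of these 3 genes Wt 3 was far below the other arrays, which spread little among themselves: without Wt 3 the SD was 0.19 for Lbh, 0.09 for Ccnd2 and 0.12 for Psme3. Cox6c of the respiratory chain (10.53, 10.18, 8.38 and 9.81), Cdo1 of cysteine breakdown (12.73, 12.85, 11.19 and 12.67) and the secreted protease Htra3 (12.58, 12.91, 11.14 and 12.50) were also lowest on Wt 3. Without Wt 3 their SDs were 0.36, 0.09 and 0.22, so the other arrays spread most for Cox6c. Probes did not always bear out the low reading on Wt 3: the second Htra3 probe was highest there, with 9.52, 9.78, 10.21 and 9.57. Over the 97 genes, 14 of 33 other detected probes were lower on Wt 3 by at least 0.5. The matching counts were 4 of 12 for genes high on Wt 3, 8 of 13 for genes low on Wt 2 and 5 of 13 for genes high on Wt 2. The share over all detected probes was not counted.

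A set of 5 histone H2A genes were also in that group, H2ac24, H2ac15, H2ac7, H2ac10 and H2ac12, whose near-identical sequences may share signal. H2ac24 read 11.61, 10.73, 9.57 and 11.32. The group also held the mast cell proteases Tpsb2 and Mcpt4 (8.47, 8.87, 7.68 and 8.60), and all 6 detected mast cell genes were lowest on Wt 3, against 29.9% of detected genes. Among genes high on Wt 3, the uncharacterised 2310022B05Rik read 9.31, 9.47, 10.87 and 9.48, and Mrpl2 of the mitochondrial ribosome 9.45, 9.51, 10.78 and 9.34. The median SD in Agt Tg was 0.20 both for genes low and for genes high on Wt 3, beside 0.159 for all detected genes. All these genes were chosen by their Wt range, which by itself favours a larger SD in Wt. Of the 97 genes low on Wt 3, 8 varied at least as much in Agt Tg as in Wt, a share not counted over all detected genes. Among the 8 were H2ac15 (SD 0.71 in Wt and 0.74 in Agt Tg), H2ac7 (0.66 and 0.75), H2ac12 (0.61 and 0.66) and Mcpt4 (0.51 and 0.61). H2ac24 was close at 0.91 and 0.83. The lower detection count and upper intensity of Wt 3 move with this pattern, and their part in it was not tested.

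**Figure D4:**
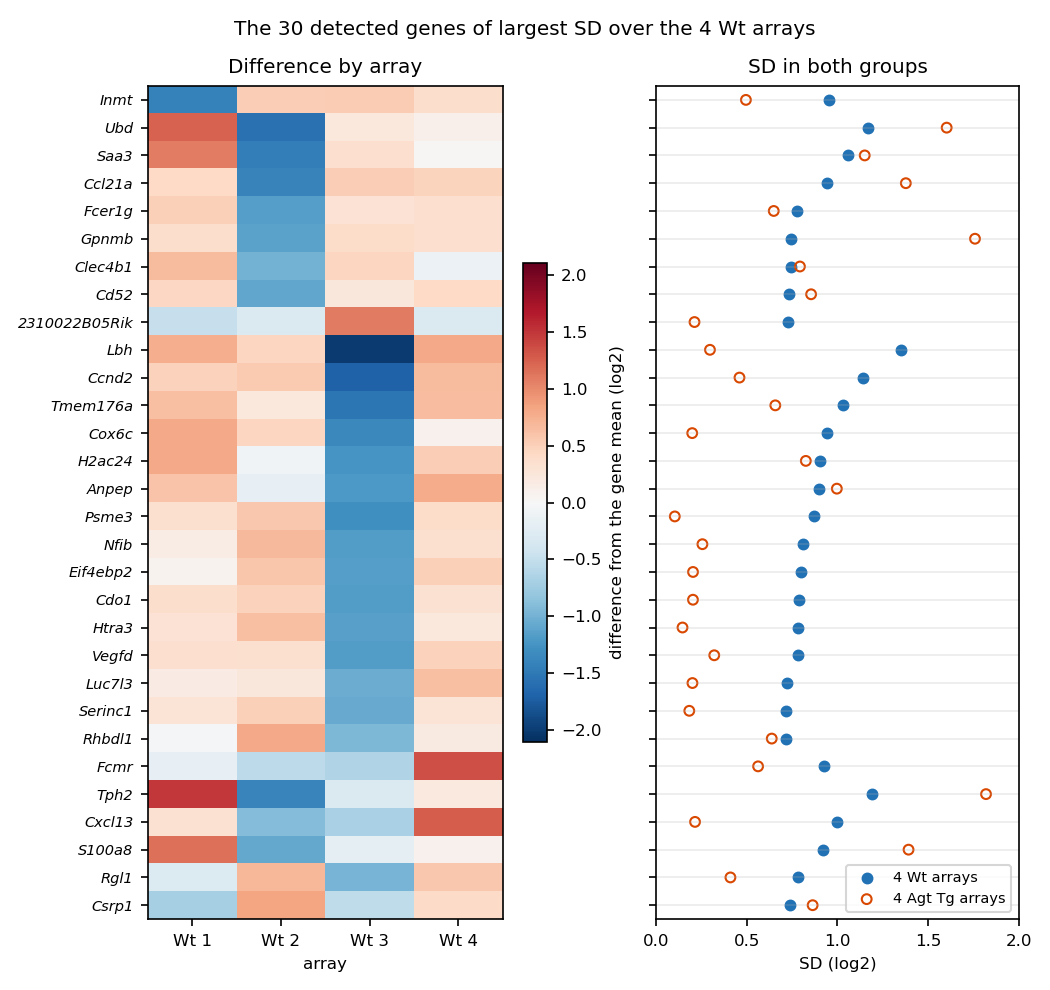
Left, difference of each Wt array from the gene's own mean (log2, blue low and red high) for the 30 detected genes of largest SD, ordered by the array that stands apart; right, SD of each gene over the 4 Wt arrays (filled) and the 4 Agt Tg arrays (open). A block from Lbh to Rhbdl1 is low on Wt 3 alone, a block from Ubd to Cd52 low on Wt 2, and several of the Wt 2 genes have the larger SD in Agt Tg.

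The genes that were low on Wt 2 included receptors, adaptors, antigen presentation genes and chemokines of immune cells. Fcer1g, the shared signalling chain of Fc receptors, read 12.66, 11.01, 12.47 and 12.52. Gpnmb, a glycoprotein of lipid-laden macrophages, read 12.16, 10.67, 12.17 and 12.15, and its next brightest probe 9.12, 7.94, 9.34 and 9.14. Trem2, the lipid receptor of such macrophages, read 10.12, 8.89, 9.86 and 10.32. For each, Wt 2 was below every other array while those 3 arrays lay close together. Tyrobp, the adaptor of Trem2, read 9.06, 7.86, 8.61 and 8.58, H2-DMb1, which loads MHC class II, 11.23, 9.58, 10.74 and 10.46, and the lymphocyte and myeloid surface gene Cd52 12.01, 10.48, 11.81 and 11.99. The chemokine Ccl21a, which draws lymphocytes and has near-identical copies, read 9.18, 7.35, 9.27 and 9.23. In Agt Tg the median SD of the genes low on Wt 2 was 0.79, and 31 of the 39 had an SD there at least as large as in Wt. The same held for 8 of 97 genes low and 3 of 36 high on Wt 3, 6 of 22 high on Wt 2 and 21 of 60 with no array apart. All these groups were chosen by the Wt range, which favours a larger SD in Wt, and the share over all detected genes was not counted.

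Some inflammatory genes combined a low Wt 2 with a high Wt 1. Saa3, an acute phase protein that inflamed fat makes, read 10.36, 7.84, 9.63 and 9.32, Ubd, a ubiquitin-like protein of the cytokine response, 11.72, 8.90, 10.69 and 10.57, and S100a8 12.09, 9.86, 10.75 and 11.02. Tph2, known as the serotonin-making enzyme of neurons, had the same highest and lowest arrays with 11.40, 8.54, 9.61 and 10.12, the second largest SD of all (1.19). Wt 1 was highest and Wt 2 lowest for all 4, while the order of Wt 3 and Wt 4 differed between these genes. The Saa3 promoter (chr7:46715627-46715926, minus strand, GRCm38.p6) is shown as that of the gene of this group best known for acute induction, with capitals as above.
Saa3: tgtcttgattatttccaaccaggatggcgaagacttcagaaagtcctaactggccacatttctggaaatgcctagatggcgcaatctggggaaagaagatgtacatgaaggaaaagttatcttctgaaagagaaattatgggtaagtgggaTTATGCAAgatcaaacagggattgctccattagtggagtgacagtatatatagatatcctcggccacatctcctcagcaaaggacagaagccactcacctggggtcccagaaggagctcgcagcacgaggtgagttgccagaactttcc
It held 1 C/EBP-like match at position -99. Of the 32 genes low on Wt 2 that had a promoter window, 8 held these letters, and of 75 such genes low on Wt 3, 8 did. The letters were in 8.6% of promoters of detected genes and in 10.8% of all promoters. These shares are given as a description.

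Several lists differed on Wt 2, in both directions. Lipid-associated macrophage genes were lowest on Wt 2 for 7 of 8 detected members, MHC class II and dendritic cell genes for 7 of 9, chemokines and cytokines for 7 of 11, T and NK cell genes for 8 of 11 and macrophage genes for 10 of 18, where 25.5% of all detected genes were lowest on that array. The median differences from the gene means on Wt 2 were -0.47, -0.35, -0.38, -0.21 and -0.23 in that order. With Wt 3 left out, the same lists were lowest on Wt 2 for 8 of 8, 8 of 9, 8 of 11, 9 of 11 and 16 of 18, against 34.3% of all detected genes. Other lists were low on Wt 2 as well. The median difference there was -0.43 for B and plasma cell genes, -0.20 for immediate early, -0.19 for acute phase and -0.17 for proliferation genes. With all 4 arrays, 3 of 5, 7 of 14, 5 of 9 and 4 of 7 of them were lowest on Wt 2. On the other side, 10 of 13 lipid droplet genes and 8 of 11 adipogenic and insulin genes were highest on Wt 2, against 25.1% of all detected genes, with median differences of 0.17 and 0.23. Genes of mitochondrial oxidation were highest on Wt 2 for 7 of 14, with a median difference of 0.17. Adipocyte lists were not uniform in this. Triglyceride synthesis genes were highest on Wt 2 for 8 of 17, with a median difference there of 0.14 beside 0.15 on Wt 3. Adipokines were highest on Wt 2 for 3 of 8 and lowest for 2, Lep being one of the lowest, and imprinted and expansion genes were highest for 1 of 8 and lowest for 3. With Wt 3 left out, lipid droplet genes were highest on Wt 2 for 11 of 13 and adipogenic genes for 9 of 11. Triglyceride synthesis genes were then highest there for 11 of 17 and adipokines for 3 of 8. Imprinted and expansion genes, a list that also holds Tph2, were highest there for 5 of 8. The share of all detected genes was 37.2%. Immune lists were not uniform either, since all 6 detected mast cell genes were highest on Wt 2, with a median difference of 0.26, and remained so without Wt 3. Among single genes high on Wt 2 were Nnat, Plin1, Ebf2, the clock gene Nr1d1 (9.46, 10.32, 8.84 and 9.50), Cs of the citrate cycle and Cyp2e1 (12.90, 13.92, 12.94 and 13.09). Resident macrophage genes did not share the shift, with a median difference of 0.00 on Wt 2 and a median SD of 0.22. Under each of 3 other scalings the lipid-associated macrophage, MHC class II, chemokine, T and NK and macrophage lists stayed lowest on Wt 2, and the lipid droplet, adipogenic and mast cell lists highest. The share of adipocytes, macrophages or other cells in each piece of fat was not measured.

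**Figure D5:**
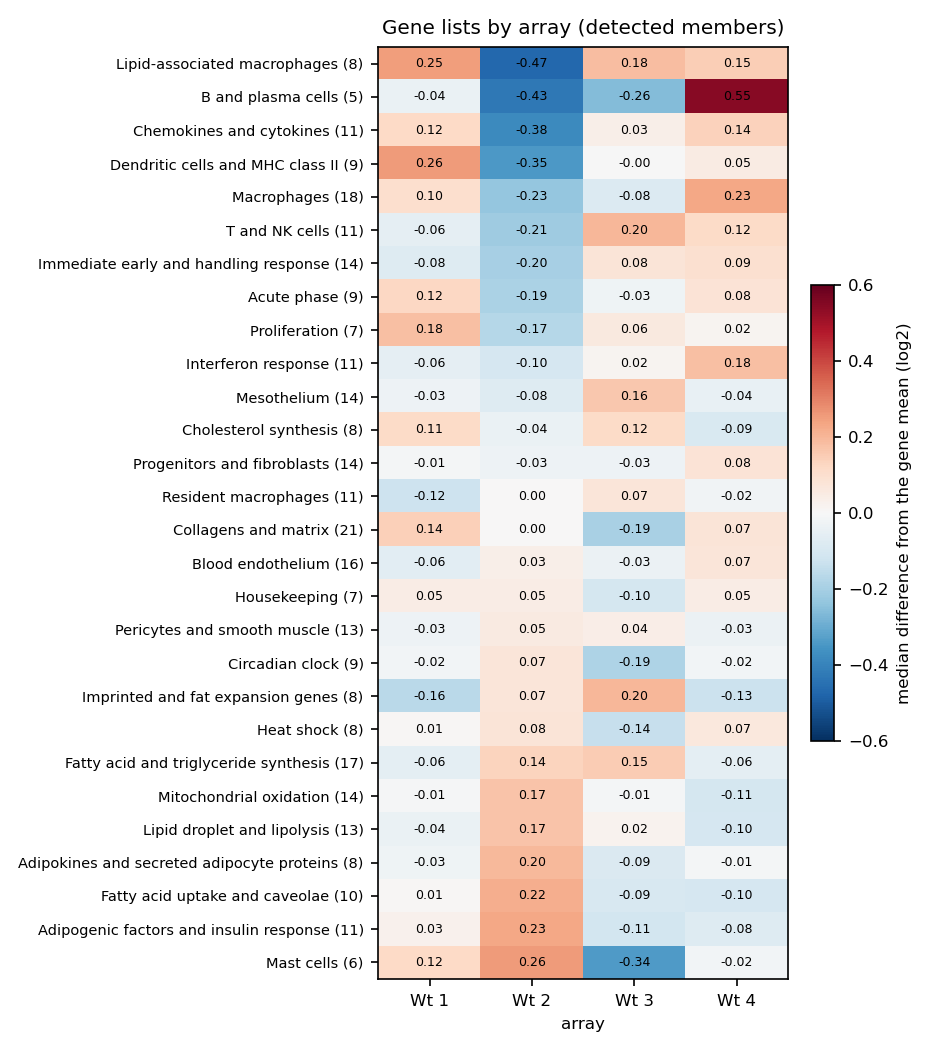
Median difference of the detected members of each gene list with 5 or more of them from their own means (log2, rows; number of members in brackets) on each Wt array (columns), sorted by Wt 2. Macrophage (other than resident), MHC class II, chemokine, T and NK and B cell lists are negative on Wt 2. Immediate early, acute phase, proliferation and interferon lists are negative there too. The adipocyte lists drawn, mast cells and mitochondrial oxidation are positive on Wt 2. B cell genes are highest on Wt 4 (0.55) and mast cell genes lowest on Wt 3 (-0.34).

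B cell genes were highest on Wt 4, though not these alone. Cxcl13, the chemokine that organises B cell follicles, read 8.57, 7.36, 7.58 and 9.53 (SD 1.00), and Fcmr, the IgM receptor, 8.17, 7.79, 7.72 and 9.70. Cd79b, which signals for the antigen receptor of B cells, read 8.10, 7.54, 7.30 and 8.84, and its second probe was also highest on Wt 4 (8.39 against 7.32 to 7.67). All 5 detected B and plasma cell genes were highest on Wt 4, against 18.7% of all detected genes. Macrophage genes were also highest on Wt 4 for 10 of 18, with a median difference of 0.23, and interferon response genes for 8 of 11. The SD of Cxcl13 in Agt Tg was 0.21. Wt 1 stood apart for few genes, and the plainest was Inmt, a methyltransferase, with 9.11 against 11.06, 11.06 and 10.91. Adgre1, the macrophage antigen F4/80, was highest on Wt 1 (9.08, 7.88, 8.32 and 8.30).

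Gene groups known to respond to handling and time of day were read as well. Of 20 immediate early genes 14 were detected on all 4 arrays, none above percentile 90, Dusp1 (10.61 ± 0.26) and Klf2 (10.54 ± 0.30) being brightest. Fos read from 7.94 on Wt 2 to 9.02 on Wt 1. Of 15 clock genes 9 were detected on all 4, Dbp at 10.08 ± 0.37, with Nr1d1 the most variable. Proliferation genes were dim, with 7 of 12 detected on all 4 and a median percentile of 19.5. Interferon response genes had a median percentile of 29.4, Ifi27 (12.66 ± 0.12) and Gbp2 (11.84 ± 0.14) being bright. On Wt 4, 8 of 11 were highest, against 18.7% of all detected genes. Heat shock genes had a median percentile of 70.5, cholesterol synthesis genes 54.3 and genes of mitochondrial oxidation 79.2.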

How the data were processed

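Total RNA of epididymal WAT was amplified, labelled with biotin and hybridised to Illumina MouseRef-8 v2.0 BeadChips. The authors deposited bead intensities that were not normalized, each with a detection p-value, and a table of log2 values made with lumi per the labels. Its settings were not stated in the sources. Checked against the intensities, the deposited log2 values had equal quantiles on all 8 arrays, had the same probe order as the intensities (Spearman 1.00) and lay within 0.018 of quantile-normalized log2 intensities, so they are uncentred and carry no visible background subtraction.

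All 25696 probes in both tables were used. Gene names came from GEO's platform annotation, with symbols looked up through Entrez IDs in RefSeq. Of the probes, 23978 had 1 symbol and 1718 were left without a name. Any probe with several symbols would be among the latter, and such probes were not counted. The named genes were Lep, Adipoq, Lyz2 and Nnat, the 25 highest signals, the 30 largest SDs and, in each of 42 lists, the 5 brightest and 3 most variable detected members and those on no array. Genes outside that rule (Fasn, Fabp4, Cd36, Eif2s3y and others given by their levels) were named after their values were seen. Members and lists were chosen with earlier results of these data known. Of the genes listed, 75 were not analysed here. No groups were compared, so no test was run. The number of arrays limits the precision, since 4 arrays give a coarse SD.

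Alternatives were neqc in limma 3.58.1 (R 4.3.3, offset 16), median scaling, quantile normalization of the 4 arrays alone, other detection rules, the mean of a gene's probes, and leaving out each array. The gene step was tested on simulated data. Python 3.11.15 and pandas 2.3.3 were used. The authors' detection p-values were not recomputed.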

Additional observations from a re-analysis of the deposited data

Results flagged for a closer look

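Of 57 genes looked at array by array, 14 had 1 array so far from the other 3 that the gap, as a share of the range, passed Dixon's 95% critical value for 4 samples. Chance alone marks about 1 in 20 such groups, and over all 7229 detected genes 453 (6.27%) passed. The genes were shown partly because they varied, so the count of 14 is not a test. No cause was tested for any of them.

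Wt 3 was the far array for 7 genes, with gap shares of 0.874 for Lbh, 0.923 for Ccnd2, 0.880 for Psme3 and 0.893 for Cdo1 on the low side, and 0.889 for 2310022B05Rik, 0.883 for Mrpl2 and 0.867 for Fabp4 on the high side. The whole range of Fabp4 was only 0.16. Wt 2 was the far array for 5 genes, low for Fcer1g (0.885), Gpnmb (0.984), Ccl21a (0.950) and Cd52 (0.865) and high for Adipoq (0.844). Wt 1 was low for Inmt (0.924). Wt 1 was also high for Rplp1 (1.0), where the other 3 arrays share 1 value of the quantile scale and the range was 0.04.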

How the results depend on the processing

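The number of genes detected on all 4 arrays kept within 1.5 times of 7229 except with no detection filter, when all 16593 annotated genes counted. The number with a range of 1 or more, 269 as reported, was 1063 with neqc values and 718 with median scaling. The median SD, 0.171 as reported, was 0.267 with neqc values, 0.214 with median scaling and 0.1 with no detection filter. Of the 30 genes of largest SD, 15 were shared with neqc values. Leaving out 1 array at a time gave 82 (without Wt 3) to 236 genes with a range of 1 or more, 150 without Wt 2, a median SD of 0.123 (without Wt 3) to 0.174, and 13 (without Wt 3) to 26 shared members of the 30 largest SDs. The 25 highest signals shared 21 to 25 members with the reported list under every alternative run, and 25 to 30 lists had a median percentile above 50, 26 as reported. Counted by array, a choice made after seeing the data, genes low on Wt 3 numbered 97 as reported, 260 with neqc values and 462 with median scaling, and genes low on Wt 2 39, 117 and 19. All 97 genes stayed lowest on Wt 3 and all 39 lowest on Wt 2 under the other 3 scalings. Of the 36 genes high on Wt 3, 2 kept a range of 1 or more with median scaling. At a detection p under 0.01 no epididymis gene was left, so that list gave no value. The cause of these differences was not tested. No paired analysis was possible because no groups were compared. Signal over background limits quartile 1 of signal, where the median SD was 0.105 and 1 gene passed a range of 1.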
